A study of Mus musculus with 12 samples.

Results

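The genes described are 10 transcripts of the stomach and gut lining, Tff1, Tff2, Tff3, Gkn2, Dpcr1, Dmbt1, Ctse, Alpi, Vil1 and Lgals4, among 30743 genes and transcripts counted in cancer cells sorted from mouse lung tumours. They were selected on measured counts of these same libraries, so their changes are described without a test. In all, 12 libraries were available: 3 from tumours with floxed Lkb1 alleles (genotype KT;Lkb1f/f, called Lkb1-deleted here), 3 titled KT;H11LSL-Cas9_sgSik1, 2 titled KT;H11LSL-Cas9_sgSik1-3 and 4 from KT tumours. KT is the background carried by every group, on a mixed BL6/129 strain, and the labels do not spell it out. Lkb1, the product of Stk11, is a kinase that activates the salt-inducible kinases (SIKs). The genotype label joins both sgSik titles, and these 5 libraries together are called Sik-targeted. They carry Cas9 and guides against Sik genes, whereas the KT label names neither Cas9 nor a guide, so targeting and Cas9 cannot be told apart. Alternative names in the labels give lentiviral Cre for KT replicates 2 to 4 and not for replicate 1. The age of the mice and the meaning of the range in sgSik1-3 are not stated in the labels. Neither is it stated that replicates came from different animals, so a p-value here weighs a difference against variation among libraries that may be partly technical.

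The mucous cells of the stomach surface secrete trefoil factor peptides and gastrokines, which mix with mucins into the protective layer over the epithelium. The absorptive cells of the intestine carry a brush border of microvilli, built around actin bundles and coated with digestive enzymes. Lung alveolar cells normally express little of either set. In mouse lung adenocarcinoma, loss of the lung lineage factor Nkx2-1 is known to release a gastric programme in which Hnf4a and several of the 10 genes take part.

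Both Lkb1-deleted and Sik-targeted libraries were set against KT with edgeR's quasi-likelihood test over 13575 genes that passed a filter on low counts. Levels are counts per 1000000 counts (CPM), scaled by TMM effective library sizes, and a change is given as a log2 fold change, followed by its standard error (SE). Of the 10 genes, 8 passed the filter, and Tff2 and Tff3 did not. The promoter table of RefSeq (GRCm38.p6) held 5 of the 10 genes, namely Lgals4, Vil1, Dpcr1 (listed there as Mucl3), Alpi and Gkn2. Each promoter runs from 250 bases before to 50 bases after the annotated start. They were searched on both strands for short letters of factors that act in foregut and gut or downstream of SIKs. The 3 that held a match are shown so that the letters can be read in place, with each match in capitals.

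Dpcr1, chr17:35643646-35643945, minus strand, with a cyclic AMP response element (CRE) in capitals:
Dpcr1: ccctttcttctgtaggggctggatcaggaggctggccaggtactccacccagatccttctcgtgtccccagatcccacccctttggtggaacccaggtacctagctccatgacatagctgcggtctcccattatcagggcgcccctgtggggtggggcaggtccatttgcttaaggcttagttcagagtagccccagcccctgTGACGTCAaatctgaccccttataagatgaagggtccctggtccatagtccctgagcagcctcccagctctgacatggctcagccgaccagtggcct
Alpi, chr1:87101557-87101856, minus strand, with CDX letters (first run) and HNF4 letters (second run) in capitals:
Alpi: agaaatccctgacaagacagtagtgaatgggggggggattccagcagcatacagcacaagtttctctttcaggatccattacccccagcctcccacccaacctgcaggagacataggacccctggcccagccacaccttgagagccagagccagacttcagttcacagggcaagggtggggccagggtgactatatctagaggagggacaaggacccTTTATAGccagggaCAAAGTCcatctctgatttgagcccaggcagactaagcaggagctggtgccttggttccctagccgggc
Gkn2, chr6:87373115-87373414, plus strand, with GATA letters in capitals:
Gkn2: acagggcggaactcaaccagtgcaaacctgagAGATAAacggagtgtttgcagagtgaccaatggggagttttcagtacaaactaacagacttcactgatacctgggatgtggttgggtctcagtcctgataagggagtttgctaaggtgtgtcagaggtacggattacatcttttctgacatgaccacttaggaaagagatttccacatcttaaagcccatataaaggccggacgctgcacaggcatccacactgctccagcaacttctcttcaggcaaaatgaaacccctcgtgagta

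The Dpcr1 promoter held the CRE letters TGACG on both strands, overlapping as TGACGTCA, with its first base 47 bases before the start. SIKs are known to restrain the CRTC coactivators of CREB, the factor that binds this element. Of 32851 promoters in the table, 20.8% held TGACG and 1.79% the joined form, which was added to the search after the overlap was seen. The Alpi promoter held the HNF4 letters CAAAGTC 19 bases before the start and the CDX letters TTTATNG 33 bases before it. Of all promoters, 4.44% held the HNF4 letters and 10.9% the CDX letters. The CDX match reads TTTATAG and stands where a TATA box commonly lies. The Gkn2 promoter held the GATA letters AGATAA 218 bases before the start, as did 11.2% of all promoters. The FOXA letters TGTTTAC and the AP-1 letters TGANTCA stood in 3.65% and 7.81% of all promoters and in none of these 5. The promoters of Lgals4 and Vil1 held none of the motifs named here. A match is a description of letters and not a binding site.

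Reads were found in 23582 and 23747 genes in KT replicates 2 and 3, against 14283 to 16533 genes in the other 10 libraries. Total counts ran between 3847760 and 13955181 a library, and 4 abundant transcripts took 18.4% (KT replicate 1) to 74.2% (sgSik1 replicate 1) of them. The sort had removed cells that carry CD45, CD31, F4/80 or Ter119 antigens, and Epcam and Cdh1, markers of epithelium, were present in all 12 libraries. Stk11 measured 9.28, 16.5 and 9.90 CPM in Lkb1-deleted libraries, below its range of 22.9 to 137 CPM in Sik-targeted and 30.9 to 44.6 CPM in KT libraries. Lkb1-deleted replicate 1 differed from the other two of its group in Sftpc, the surfactant protein of alveolar type 2 cells, with 539 CPM in replicate 1 and 19228 and 18715 CPM in replicates 2 and 3. Sftpc ran between 406 and 4443 CPM in Sik-targeted libraries and between 7574 and 55399.8 CPM in KT libraries.

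Of the genes secreted by gastric mucous cells, Tff1 was far more abundant in every Sik-targeted library and in 1 of the 3 Lkb1-deleted libraries than in any KT library. Tff1 encodes a trefoil peptide of the gastric surface mucous cells and lies on chr17:31161395-31165060, minus strand, with 3 exons. It had 449, 0.514 and 3.67 CPM in Lkb1-deleted replicates 1, 2 and 3, and 1523, 179 and 405 CPM in sgSik1 replicates 1, 2 and 3. It had 757 and 483 CPM in sgSik1-3 libraries, against 0.314, 0.512, 1.81 and 1.91 CPM in KT libraries. The Sik-targeted and KT ranges did not overlap, while Lkb1-deleted replicate 2 lay within the KT range and replicate 3 just above it. The log2 change was 9.19 (SE 1.76) for Sik-targeted against KT, and 7.04 (SE 1.65) for Lkb1-deleted against KT. Without Lkb1-deleted replicate 1 the Lkb1-deleted change was 0.80. Tff1 shares 1660 bases with an antisense gene, and since no strand setting is given, reads from either cannot be told apart.

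The other trefoil genes were near the limit of detection. Tff2, a trefoil peptide of gastric mucous neck cells, had 5, 0 and 0 counts in Lkb1-deleted libraries, 3, 0 and 2 counts in sgSik1, 3 and 3 counts in sgSik1-3, and 17, 0, 1 and 0 counts in KT. The highest count came from KT replicate 1, and the groups overlapped. Tff3, the trefoil peptide of intestinal goblet cells, had 7, 0 and 0 counts in Lkb1-deleted libraries, 1 count over the 5 Sik-targeted libraries and 2 counts over the 4 KT libraries. A count of 3, taken as the floor, stood for 0.165 to 0.852 CPM a library, so lower levels were not detectable at this depth. Tff3, Tff2 and Tff1 lie within 39.8 kb of one another on the same strand, and Sik-targeted libraries held 19797 counts of Tff1 in all, beside 11 of Tff2 and 1 of Tff3.

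Gkn2 encodes a gastrokine of gastric surface mucous cells that is known to pair with the Tff1 peptide. It had 52.2, 2.67 and 2.93 CPM in Lkb1-deleted libraries, 11.1, 4.47 and 16.4 CPM in sgSik1, 249.9 and 11.97 CPM in sgSik1-3, and 8.95, 1.32, 4.64 and 10.6 CPM in KT. The ranges of Sik-targeted and KT libraries overlapped, unlike those of Tff1. The log2 change was 3.21 (SE 1.28) for Sik-targeted against KT, and 0.80 when sgSik1-3 replicate 1 was left out. For Lkb1-deleted against KT it was 1.62 (SE 1.31), and fell to -1.15 without Lkb1-deleted replicate 1.

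**Figure D1:**
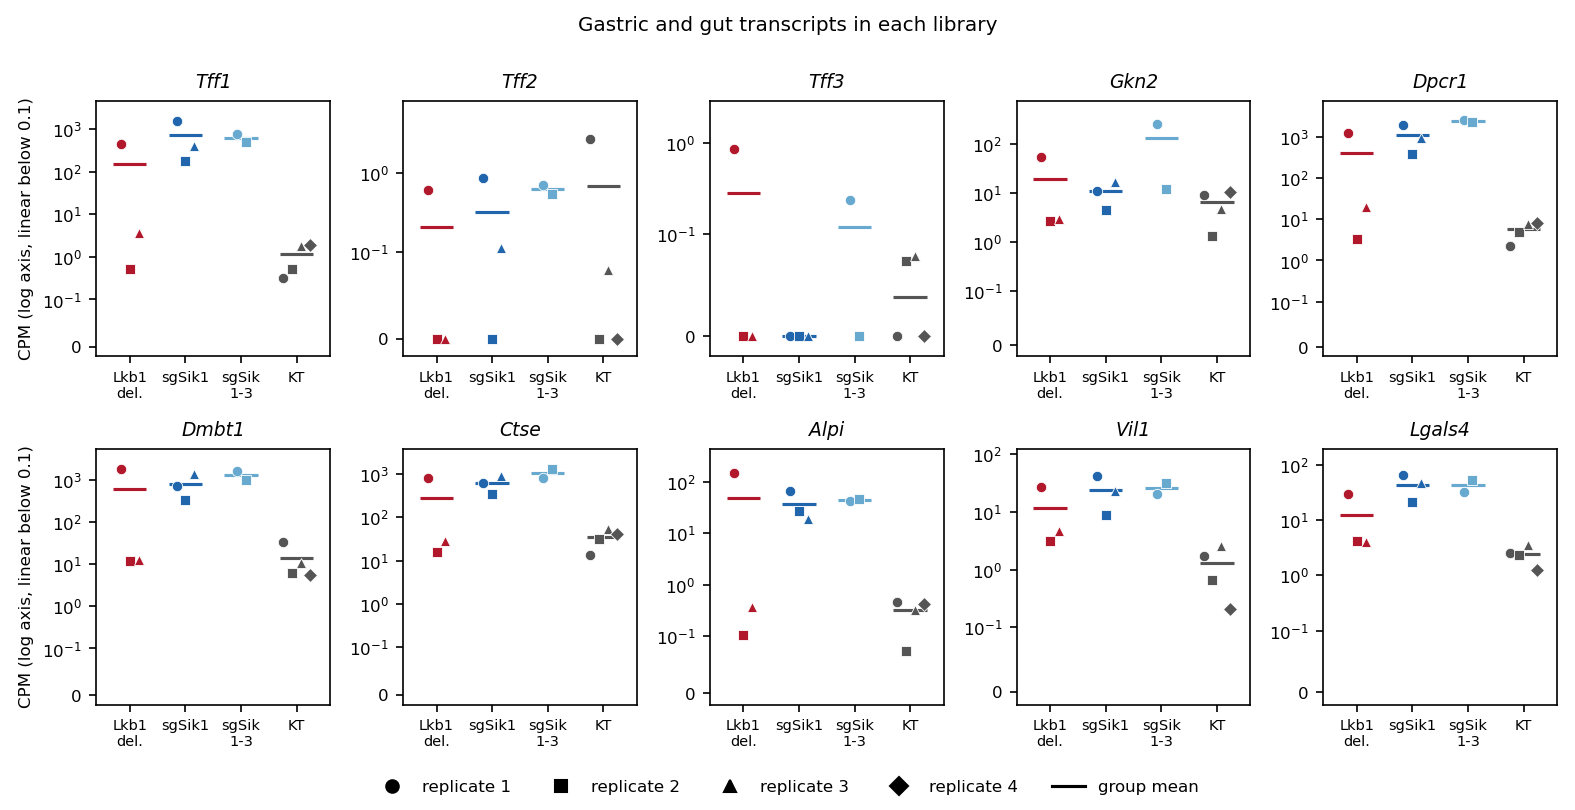
CPM of the 10 genes (vertical axes, logarithmic above 0.1 and linear below) in Lkb1-deleted, sgSik1, sgSik1-3 and KT libraries; symbols are replicates and bars are group means. Tff1 ran between 179 and 1523 CPM in Sik-targeted libraries and reached 1.91 CPM in KT, while Lkb1-deleted replicate 1 (449 CPM) lay far from replicates 2 and 3.

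Dpcr1 and Dmbt1, which make proteins of mucosal surfaces, followed the course of Tff1. Dpcr1 encodes a mucin-like membrane protein, on chr17:35635755-35643695. It had 1243, 3.39 and 20.5 CPM in Lkb1-deleted libraries, 2027, 389 and 938 CPM in sgSik1, 2574 and 2317 CPM in sgSik1-3, and 2.20, 4.90, 7.79 and 8.26 CPM in KT. Every Sik-targeted library was above every KT library, and Lkb1-deleted replicate 2 was within the KT range. The log2 change was 8.13 (SE 1.52) for Sik-targeted against KT and 6.16 (SE 1.43) for Lkb1-deleted against KT, which became 1.03 without Lkb1-deleted replicate 1. Dmbt1 encodes a secreted scavenger receptor glycoprotein that binds bacteria at mucosal surfaces. It had 1860.4, 12.02 and 12.8 CPM in Lkb1-deleted libraries, 721, 341 and 1414 CPM in sgSik1, 1674 and 991 CPM in sgSik1-3, and 34.2, 6.29, 11.02 and 5.72 CPM in KT. Its highest level of all came from Lkb1-deleted replicate 1, and replicates 2 and 3 of that group were below KT replicate 1. The log2 change was 6.15 (SE 1.41) for Sik-targeted against KT and 5.44 (SE 1.41) for Lkb1-deleted against KT. Without Lkb1-deleted replicate 1 the Dmbt1 change for Lkb1-deleted turned to -0.20.

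Ctse encodes cathepsin E, an aspartic protease abundant in the gastric epithelium, and it was the member with the clearest level in KT tumours. It had 797, 16.1 and 28.6 CPM in Lkb1-deleted libraries, 637, 352 and 921 CPM in sgSik1, 811 and 1285 CPM in sgSik1-3, and 13.2, 30.9, 54.3 and 41.7 CPM in KT. Sik-targeted and KT ranges did not overlap, while Lkb1-deleted replicates 2 and 3 lay inside the KT range. The log2 change was 4.49 (SE 1.01) for Sik-targeted against KT and 2.98 (SE 0.99) for Lkb1-deleted against KT. Without Lkb1-deleted replicate 1 the second change turned to -0.65.

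The enterocyte genes Alpi, Vil1 and Lgals4 were also higher in Sik-targeted than in KT libraries. Alpi, an intestinal alkaline phosphatase of the brush border, had 147, 0.103 and 0.367 CPM in Lkb1-deleted libraries and 65.6, 27.5 and 19.0 CPM in sgSik1. It had 43.4 and 47.3 CPM in sgSik1-3, and 0.471, 0.0732, 0.315 and 0.424 CPM in KT, where the counts were 3, 1, 4 and 2. Alpi thus stood near the floor in KT and in Lkb1-deleted replicates 2 and 3, and its log2 change of 7.06 (SE 1.65) for Sik-targeted against KT rests on these few KT counts. That for Lkb1-deleted against KT, 7.34 (SE 1.70), rests on replicate 1 as well, and turned to -0.43 without it. Its relative Akp3, the alkaline phosphatase of the mouse duodenum, named after its values were seen, had 0 counts in all Sik-targeted libraries and at most 0.708 CPM in KT.

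Vil1 encodes villin, which bundles the actin filaments of microvilli. It had 26.7, 3.18 and 4.58 CPM in Lkb1-deleted libraries, 40.9, 8.93 and 22.7 CPM in sgSik1, 20.2 and 32.1 CPM in sgSik1-3, and 1.73, 0.659, 2.60 and 0.212 CPM in KT. Lgals4, a galectin of the gut epithelium that takes part in apical sorting, had 29.5, 4.11 and 4.03 CPM in Lkb1-deleted libraries, 64.2, 20.7 and 45.8 CPM in sgSik1, 32.2 and 53.3 CPM in sgSik1-3, and 2.51, 2.34, 3.54 and 1.27 CPM in KT. These were the 2 members whose Lkb1-deleted libraries all exceeded every KT library, although replicates 2 and 3 did so by a small margin. For Sik-targeted against KT the log2 change was 4.16 (SE 0.76) for Vil1 and 4.10 (SE 0.64) for Lgals4. For Lkb1-deleted against KT it was 3.05 (SE 0.77) for Vil1 and 2.32 (SE 0.64) for Lgals4, and without Lkb1-deleted replicate 1 it was 1.49 for Vil1 and 0.71 for Lgals4.

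Levels of different genes were compared per length, as CPM per kilobase of exon. In Sik-targeted libraries the order by mean was Tff1 (952 CPM per kb), Dpcr1 (631), Ctse (377), Dmbt1 (155), Gkn2 (74.6), Lgals4 (31.3), Alpi (17.4), Vil1 (7.99), Tff2 (0.759) and Tff3 (0.0962). Tff1 ranged between 254 and 2167 CPM per kb and Dpcr1 between 149 and 986 CPM per kb, so their ranges overlapped. By median the order of these neighbours was the reverse, with 776 CPM per kb for Dpcr1 and 687 for Tff1. Both were measured in the same libraries, and their difference within libraries was not tested. The place of Gkn2 came from sgSik1-3 replicate 1, at 317 CPM per kb, against 5.67 to 20.9 CPM per kb in the other 4 libraries. By its median, 15.2 CPM per kb, Gkn2 was below Lgals4 (33.1) and Alpi (18.6). In KT libraries Ctse was first, with 16.5 ± 8.20 CPM per kb (SD, n = 4), and Gkn2 second, with 8.09 ± 5.33. Tff1, at 1.62 ± 1.19 CPM per kb, was sixth in KT.

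**Figure D2:**
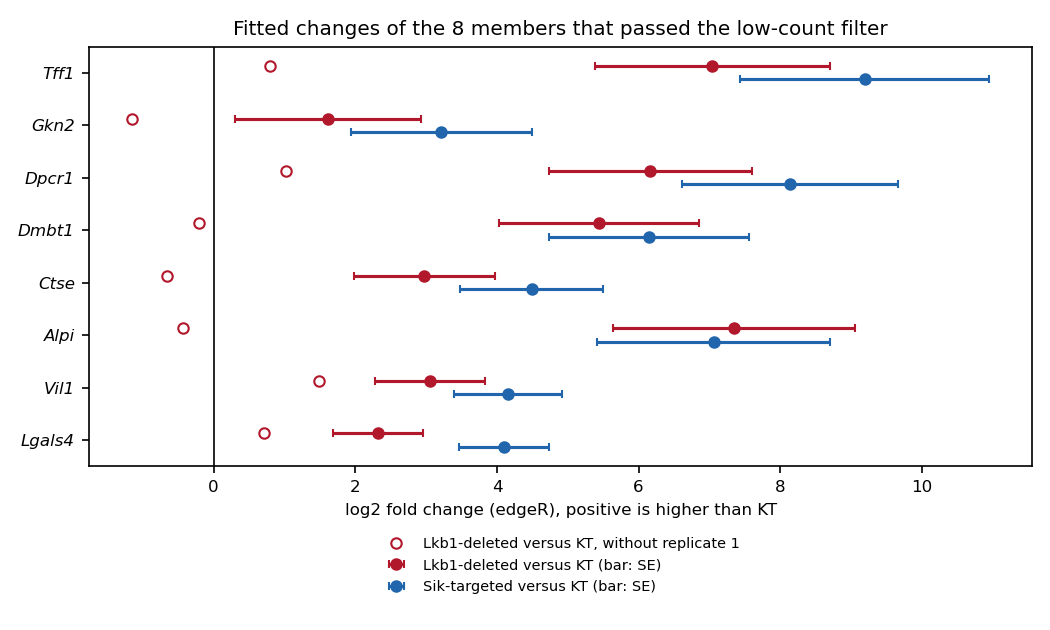
Log2 fold changes (horizontal axis) of the 8 genes that passed the filter, for Lkb1-deleted against KT (red) and Sik-targeted against KT (blue), with bars of 1 SE; open circles are Lkb1-deleted against KT without replicate 1. For Tff1 the filled points stand at 7.04 (Lkb1-deleted) and 9.19 (Sik-targeted) and the open circle at 0.80.

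Of the 8 genes that passed the filter, 7 were called higher in Sik-targeted than in KT libraries (adjusted p under 0.05), and Gkn2 was not; over all 13575 genes 5.81% were called higher and 6.56% lower. The same 7 genes had every Sik-targeted library above every KT library, as did 7.56% of all tested genes. The genes were chosen on this contrast, so nothing is read from these counts. In Lkb1-deleted against KT none of the 8 was called by edgeR. An unadjusted edgeR p under 0.05 was found for 7 of them and for 1782 of all 13575 genes. DESeq2 called 7 members and 4.07% of all genes. Over all genes edgeR called 1.16% in that comparison, and 6.64% had every Lkb1-deleted library above every KT library. Left without KT replicates 2 and 3, which have the many detected genes, the count for Sik-targeted against KT was 0. There 0.740% of all tested genes were called, and the members' log2 changes ran between 2.57 (Gkn2) and 9.24 (Tff1). Leaving out KT replicate 2 alone left 4 called members (Dpcr1, Lgals4, Tff1 and Vil1), with 4.47% of all tested genes called. In Lkb1-deleted against KT, 5 members were called without Lkb1-deleted replicate 2 and 4 without replicate 3. Over all tested genes 0.508% and 0.537% were called in these settings. The members were selected on these libraries, so these counts too are only a description.

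Lkb1-deleted and Sik-targeted libraries were also compared with each other. No member was called in that direct comparison by edgeR or DESeq2, where edgeR called 0.221% and DESeq2 2.54% of all genes. An unadjusted edgeR p under 0.05 was found for 1 member and for 1723 of all 13575 genes. The log2 change of Lkb1-deleted over Sik-targeted was -2.15 (SE 1.37) for Tff1, -1.97 (SE 1.25) for Dpcr1 and -1.77 (SE 0.62) for Lgals4. It was 0.29 (SE 1.19) for Alpi, the member with the highest value in this comparison. These values average 1 high and 2 low Lkb1-deleted libraries. Without replicate 1, the change was -8.41 for Tff1 and -7.52 for Alpi, and 7 of the 8 were called, beside 4.65% of all tested genes.

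Between the titles sgSik1-3 and sgSik1 no member was called, and 0% of 15303 genes were called by edgeR. At an unadjusted p under 0.05 there were 528 genes, DESeq2 called 6 and limma-voom called 0. Tff1 had a log2 change of -0.18 (SE 1.70) and Lgals4 of -0.02 (SE 0.73) for sgSik1-3 over sgSik1. Dpcr1 had a log2 change of 1.13 (SE 1.51). Gkn2 had the largest change, 3.61 (SE 1.38), and without sgSik1-3 replicate 1 it was 0.15.

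Across libraries the 8 genes varied together, apart from Gkn2. These genes were selected on counts of the same libraries, so a shared course may follow from that choice, and nothing is read from it. After each gene's log2 CPM was standardised over the 12 libraries, Tff1 lay on average 0.159 SD from the mean of the other members and Gkn2 0.650 SD. The mean standardised level was 1.03 in Lkb1-deleted replicate 1, against -0.93 and -0.68 in replicates 2 and 3. It ran between 0.37 (sgSik1 replicate 2) and 1.14 (sgSik1-3 replicate 1) in Sik-targeted libraries and between -1.12 and -0.73 in KT libraries. In bulk libraries, more cells of a type and more RNA per cell cannot be told apart.

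**Figure D3:**
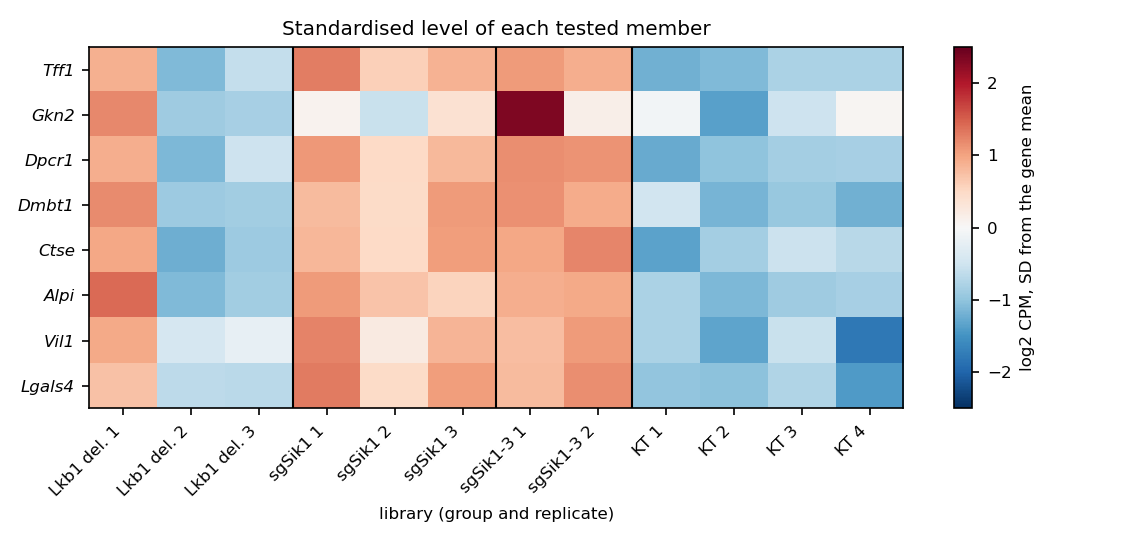
Standardised log2 CPM (colour, in SD from each gene's mean) of the 8 genes that passed the filter (rows) in the 12 libraries (columns; Lkb1-deleted, sgSik1, sgSik1-3, KT). The mean over the rows was 1.03 in Lkb1-deleted replicate 1 and -0.93 in replicate 2, and Gkn2 in sgSik1-3 replicate 1 stood at 2.34.

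Other genes whose standardised level lay closest to the members' mean over the 12 libraries, of 9811 candidates, were Slc45a3 (mean distance 0.121 SD), B3gnt3 (0.129), Degs2 (0.152), Mcpt1 (0.166), Golm1 (0.171), Cttn (0.182), Hnf4a (0.196) and Mcpt8 (0.200). Degs2, a sphingolipid hydroxylase, had 25.8, 0.103 and 0.367 CPM in Lkb1-deleted libraries, 5.04 to 23.0 CPM in Sik-targeted libraries and at most 0.472 CPM in KT. Mcpt1, a mast cell protease, had 4039.6, 2.16 and 8.43 CPM in Lkb1-deleted libraries, 754 to 2824 CPM in Sik-targeted libraries and 2.35 to 14.5 CPM in KT. Mcpt1 belongs to a family of near copies, so its reads are uncertain between them. Ptprc, which encodes the CD45 antigen of leukocytes, was at 0 in Lkb1-deleted replicate 1 and reached 0.725 CPM in Sik-targeted libraries and 7.76 CPM in KT libraries. Summed over 10 leukocyte markers, the level was 3.42 CPM in Lkb1-deleted replicate 1, and 2.98 and 2.93 CPM in replicates 2 and 3. That sum was 1.09 to 5.93 CPM in Sik-targeted and 13.7 to 34.8 CPM in KT libraries. Which cells gave the Mcpt1 reads was not tested.

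Further genes of stomach and gut were counted from 4 lists without the members (gastric epithelium, intestinal epithelium, brush border, and foregut and gut regulators), of which 66 genes were tested. The lists were chosen with earlier results of these data known, so their shares are a description and not independent support. In Sik-targeted against KT, 23 rose and 3 fell by edgeR, with a median log2 change of 1.18, against 5.81% higher, 6.56% lower and a median of -0.03 over all genes. Among regulators 9 of 16 rose (median 1.98), among brush border genes 7 of 15 (median 1.61) and among gastric genes 3 of 14 (median 0.87). Intestinal genes were mixed, with 4 of 21 higher, 3 lower and a median of -0.09. Without KT replicates 2 and 3, where 68 list genes were tested, none was called, and with a replicate block 13 of the 66 were. Without 1 library, the 26 calls became 14, 10, 12 and 11 without KT replicates 1, 2, 3 and 4. They became 15 and 17 without sgSik1 replicates 1 and 3, and 17 and 13 without sgSik1-3 replicates 1 and 2. Of 20 list genes named below as called, 8 were called whichever library was left out, namely Ceacam1, Elf3, Foxq1, Klf4, Klf5, Pls1, Slc5a1 and Sox9.

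In the gastric list, the 3 genes that rose in Sik-targeted libraries were Anxa10, Gkn1 and Muc5ac. Anxa10, an annexin typical of gastric epithelium, had 10.6, 0 and 0 CPM in Lkb1-deleted libraries, 4.90 to 50.5 CPM in Sik-targeted libraries and 0.157 to 1.10 CPM in KT, a log2 change of 4.82 for Sik-targeted against KT (SE 1.26, edgeR adjusted p = 0.0262). Gkn1, the partner gastrokine of Gkn2, had 3.41, 0.432 and 3.92 CPM in sgSik1 libraries and 17.3 and 2.36 CPM in sgSik1-3, against 0, 2, 5 and 1 counts in KT libraries, near or under the floor (log2 change for Sik-targeted against KT 4.61, SE 1.36, edgeR adjusted p = 0.0392). Without sgSik1-3 replicate 1 its log2 change was 3.54 and it was not called (edgeR adjusted p = 0.0959). Muc5ac, the gel-forming mucin of gastric surface cells, had 125, 5.24 and 6.23 CPM in Lkb1-deleted libraries, 3.08 to 121 CPM in Sik-targeted libraries and 2.34 to 6.43 CPM in KT. It was just past the threshold in Sik-targeted against KT (log2 change 3.72, SE 1.16, edgeR adjusted p = 0.0499), with overlapping ranges. Leaving out any 1 KT library ended the calls of all 3 genes. So did leaving out sgSik1-3 replicate 1 for Anxa10 and Gkn1, and sgSik1 replicate 1 or 3 or sgSik1-3 replicate 2 for Gkn1 and Muc5ac.

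Of the brush border, Pls1, Myo7b, Ezr, Myo1a and Baiap2l2 had the smallest p. Pls1, the plastin that bundles microvillar actin beside villin, averaged 79.4 ± 29.2 CPM (SD, n = 5) in Sik-targeted and 16.9 ± 2.59 CPM (SD, n = 4) in KT libraries. Its log2 change was 2.20 (SE 0.43, edgeR adjusted p = 0.0069). Myo7b, a myosin that holds the tips of microvilli together, averaged 13.3 CPM in Sik-targeted and 0.812 CPM in KT libraries (log2 change 3.81, SE 0.94, edgeR adjusted p = 0.0189). Ezr, the ezrin linker of actin to the membrane, was abundant in both, with 471 CPM in Sik-targeted and 209 CPM in KT libraries (log2 change 1.15, SE 0.31, edgeR adjusted p = 0.0279). Myo1a (2.88 CPM in Sik-targeted, 0.336 CPM in KT libraries) and Baiap2l2 (2.36 CPM in Sik-targeted, 0.207 CPM in KT libraries) rose as well, at low levels.

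Intestinal epithelium genes moved in both directions in Sik-targeted libraries. Gpa33, a surface antigen of intestinal epithelium, had 34.7, 0.308 and 0.550 CPM in Lkb1-deleted libraries, 4.90 to 83.8 CPM in Sik-targeted and 0.212 to 1.18 CPM in KT libraries. Its log2 change for Sik-targeted against KT was 5.78 (SE 1.31, edgeR adjusted p = 0.0143). Ceacam1, an adhesion molecule of many epithelia (log2 change 1.92, edgeR adjusted p = 0.0109), and Krt8, a keratin of simple epithelia including lung (1.94, edgeR adjusted p = 0.0139), also rose. Slc5a1, the sodium-glucose cotransporter of enterocytes, fell to 2.504 CPM in Sik-targeted libraries, against 24.6 CPM in KT libraries (log2 change -3.24, SE 0.72, edgeR adjusted p = 0.0121). Anpep, a brush border aminopeptidase also found on myeloid cells, fell to 10.9 CPM in Sik-targeted libraries, against 73.0 CPM in KT libraries (log2 change -2.76, SE 0.67, edgeR adjusted p = 0.0176).

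The regulators that rose in Sik-targeted libraries with the smallest p were Foxq1, Klf5, Sox9, Elf3 and Klf4. Foxq1, a forkhead factor of gastric surface mucous cells, Klf4, a factor of differentiated gut epithelium, and Klf5, a factor of gut crypts, were the 3 genes of the 66 that were also called in Lkb1-deleted against KT. Foxq1 had 57.9, 19.8 and 30.6 CPM in Lkb1-deleted libraries, 28.5 to 81.5 CPM in Sik-targeted and 8.42 to 11.1 CPM in KT libraries. Its log2 change was 1.87 (SE 0.40, edgeR adjusted p = 0.0408) for Lkb1-deleted and 2.59 (SE 0.38, edgeR adjusted p = 0.00177) for Sik-targeted against KT. Klf4 had log2 changes of 3.16 (edgeR adjusted p = 0.0322) for Lkb1-deleted and 2.63 (edgeR adjusted p = 0.0113) for Sik-targeted against KT, and Klf5 of 1.47 (edgeR adjusted p = 0.0432) and 1.63 (edgeR adjusted p = 0.005) for the same comparisons. Like Lgals4 and Vil1, these 3 genes were above every KT library in all 3 Lkb1-deleted libraries. Without Lkb1-deleted replicate 1 none of the 3 was called, while their log2 changes were 1.36 for Foxq1 (edgeR adjusted p = 0.1596), 2.59 for Klf4 (edgeR adjusted p = 0.0658) and 1.39 for Klf5 (edgeR adjusted p = 0.112). The 3 calls also became 0 without sgSik1-3 replicate 2 or KT replicate 1, 2 or 3, and 1 without Lkb1-deleted replicate 3, sgSik1 replicate 3, sgSik1-3 replicate 1 or KT replicate 4. Without sgSik1 replicate 2 there were 5.

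Hnf4a, a nuclear receptor that drives gastric and intestinal differentiation, had 195, 3.80 and 1.65 CPM in Lkb1-deleted libraries, 145, 42.1 and 94.96 CPM in sgSik1, 110.0 and 166 CPM in sgSik1-3, and 5.96, 2.34, 10.2 and 7.20 CPM in KT. It was higher in every Sik-targeted than in every KT library, with a log2 change of 4.09 (SE 1.10, edgeR adjusted p = 0.0283). That call was lost without any 1 KT library, sgSik1 replicate 1 or sgSik1-3 replicate 2, where the highest adjusted p was 0.0975. Lkb1-deleted replicate 1 was the highest library of all and replicate 3 the lowest, and Lkb1-deleted against KT was not called (log2 change 3.36, SE 1.12, edgeR adjusted p = 0.186). Gata5, a regulator of stomach and gut endoderm chosen after its values were seen, had 58.2, 0.411 and 0 CPM in Lkb1-deleted libraries, 2.45 to 96.0 CPM in Sik-targeted and 0.157 to 1.91 CPM in KT libraries. Sox9, a factor of gut crypts and of progressed lung tumours, had 166, 9.76 and 35.2 CPM in Lkb1-deleted libraries, 71.0 to 766 CPM in Sik-targeted and 4.39 to 10.6 CPM in KT libraries (Sik-targeted against KT, log2 change 4.89, SE 0.92, edgeR adjusted p = 0.00652).

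Nkx2-1, the lung lineage factor whose loss is known to release gastric genes, was present in every library. It had 181, 172 and 331 CPM in Lkb1-deleted libraries, 410.0, 326 and 138 CPM in sgSik1, 203 and 164 CPM in sgSik1-3, and 171, 248, 237 and 232 CPM in KT. The groups overlapped, with log2 changes of 0.02 (SE 0.40, edgeR adjusted p = 0.990) for Lkb1-deleted and 0.14 (SE 0.35, edgeR adjusted p = 0.848) for Sik-targeted against KT. A p that misses the threshold does not show equal levels. Lkb1-deleted replicate 1, with the high gastric genes, had 181 CPM of Nkx2-1. That lies beside 172 CPM in Lkb1-deleted replicate 2, with low gastric genes, and within the KT range of 171 to 248 CPM.

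Of the endoderm factors, Foxa1 rose in Sik-targeted libraries, to 43.4 CPM against 18.4 CPM in KT libraries (log2 change 1.22, SE 0.36, edgeR adjusted p = 0.0393). Foxa2 (log2 change 1.09, edgeR adjusted p = 0.147), Foxa3 (1.65, edgeR adjusted p = 0.187) and Pdx1 (3.13, edgeR adjusted p = 0.128) were not called. Pdx1, a factor of the stomach antrum and duodenum, was at 0 in 3 KT libraries, in sgSik1 replicate 2 and in Lkb1-deleted replicates 1 and 2, unlike Hnf4a. Cdx2, which specifies intestine, had at most 0.630 CPM in any library, and Sox2 had at most 1.73 CPM. Neither passed the filter.

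**Figure D4:**
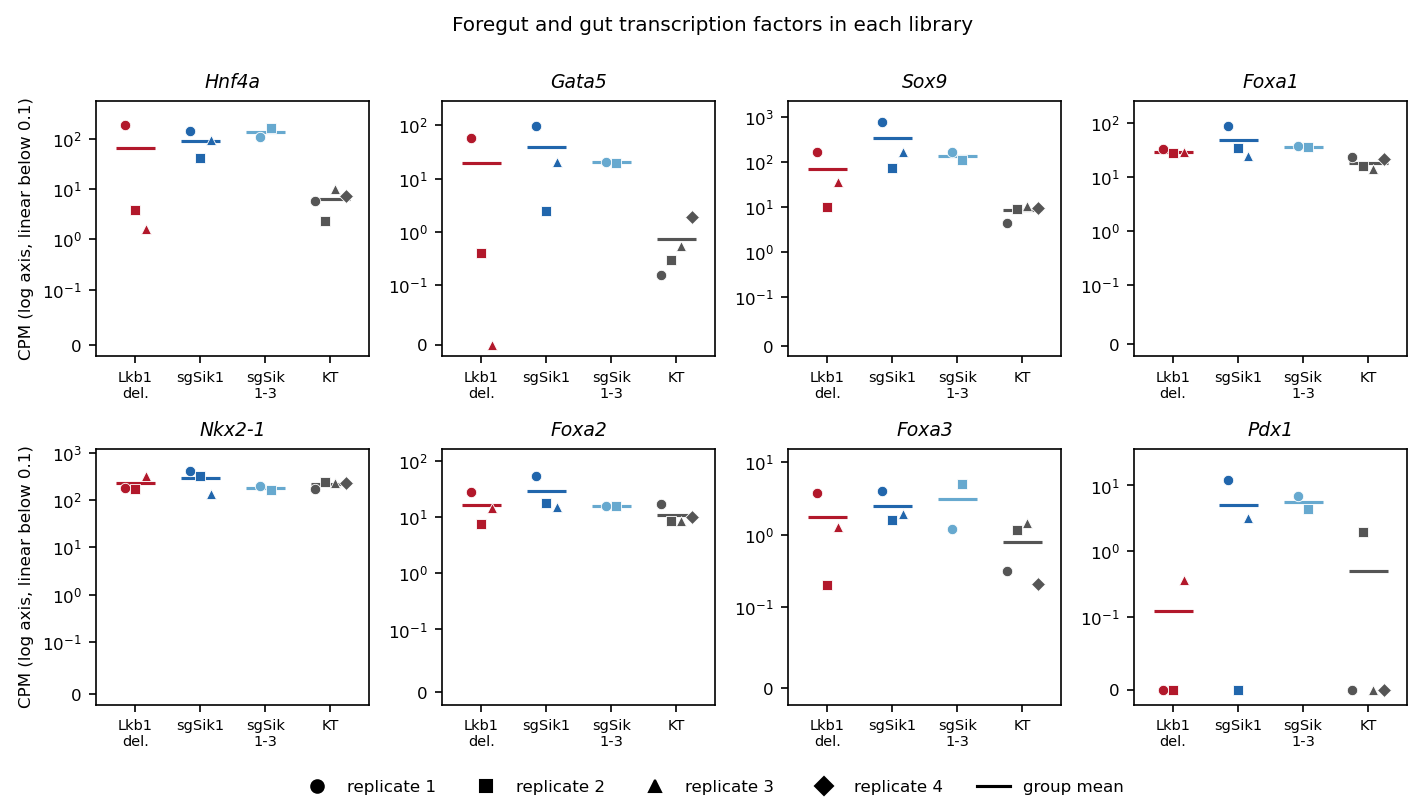
CPM of 8 transcription factors (vertical axes, logarithmic above 0.1 and linear below) in Lkb1-deleted, sgSik1, sgSik1-3 and KT libraries; symbols are replicates and bars are group means. Hnf4a ran between 42.1 and 166 CPM in Sik-targeted libraries and between 2.34 and 10.2 CPM in KT, while Nkx2-1 overlapped between groups.

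Between Lkb1-deleted and Sik-targeted libraries 1 of the 66 list genes was called, and it is named for that reason after its values were seen. Psca, a surface antigen of gastric and other epithelia, had 1.59, 8.01 and 8.43 CPM in Lkb1-deleted libraries, 31.1 to 221 CPM in Sik-targeted and 26.3 to 49.3 CPM in KT libraries. The log2 change of Lkb1-deleted over Sik-targeted was -4.04 (SE 0.71, edgeR adjusted p = 0.0287). Without Lkb1-deleted replicate 1, 18 of 82 tested list genes were called in this comparison (16 lower, 2 higher in Lkb1-deleted), beside 4.65% of all tested genes. Without sgSik1 replicate 2, 4 of 65 were called (3 lower, 1 higher), beside 2.01% of all tested genes. None was called without Lkb1-deleted replicate 2 or 3, sgSik1 replicate 1 or 3, sgSik1-3 replicate 2 or KT replicate 2, 3 or 4. In Psca, Lkb1-deleted replicate 1 was the lowest of all libraries, opposite to its place in the members.

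Tff1 lies 679.2 kb from Sik1, the gene named by the guides, and 11 genes of the count table lie between them on chromosome 17. Of these, 7 were tested, and none was called higher in Sik-targeted or Lkb1-deleted libraries. Over all 13575 genes, 5.81% were called higher in Sik-targeted and 83 genes in Lkb1-deleted libraries. At such shares the lack of calls among 7 genes says nothing of the locus. Rsph1, a gene of motile cilia, was lower in Sik-targeted libraries (0.562 CPM against 3.35 CPM in KT, log2 change -2.64, edgeR adjusted p = 0.0446), as were 6.56% of all genes. Sik1 itself was higher in Sik-targeted than in KT libraries, with means of 230 and 48.1 CPM (log2 change 2.24, SE 0.45, edgeR adjusted p = 0.0078). Counts over exons do not show editing.

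Markers of lung and other cells moved beside the gastric and gut genes. In Sik-targeted against KT, 9 of 18 alveolar type 2 markers fell and 1 rose (median log2 change -1.67), 8 of 11 club cell markers fell and 1 rose (median -3.10), and 9 of 10 ciliated cell markers fell (median -3.77). Of 11 macrophage markers 8 fell (median -5.50), and their summed level was 16.0 to 25.4 CPM in Lkb1-deleted, 21.9 to 31.9 CPM in Sik-targeted and 164 to 1157 CPM in KT libraries, with Emr1 at 0 in all Lkb1-deleted and sgSik1 libraries. Of 14 epithelial markers 6 rose (median 1.27), with summed levels of 1848 to 3134 CPM in Lkb1-deleted, 2216 to 6699 CPM in Sik-targeted and 1190.3 to 1676 CPM in KT libraries. Krt8, Cldn7 and Elf3 are among these markers and also in the stomach and gut lists above, so the sets are not separate. Of 15 genes that respond to tissue dissociation 9 rose (median 1.96), and in Lkb1-deleted against KT 6 rose (median 2.12). Within the Lkb1-deleted group, summed fibroblast markers were 1.83, 414 and 80.7 CPM and summed endothelial markers 1.10, 167 and 65.5 CPM in replicates 1, 2 and 3, the low value falling in the library with the high gastric genes. The part of these markers in the changes of the gastric and gut genes was not tested.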

How the data were processed

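RNA of cells sorted from mouse lung tumours was measured by RNA-seq in 12 libraries. Per the labels' protocols, tumours were digested for 30 min at 37 C, sorted cells (25000 to 60000) gave 30 ng of RNA, and amplified cDNA was sequenced as read pairs of 100 bases. Per the submitters' processing notes STAR 2.4.2a, HTSeq (no version stated) and mm10 were used. No source used here gives the annotation or the strand setting. The authors deposited whole-number counts per gene symbol in 1 table whose columns were matched to samples by title. Amplification without molecule tags adds spread, and the floor of 3 counts covers counting error only.

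The main test was edgeR's (4.0.16, under R 4.3.3), with TMM scaling, low counts removed by filterByExpr for the groups, a quasi-likelihood fit in robust mode, 2-sided F tests and Benjamini-Hochberg adjustment over all tested genes, called at 0.05. A fit of 12 libraries in 3 genotype groups (13575 genes) gave the comparisons with KT and of Lkb1-deleted with Sik-targeted libraries, and a fit in 4 title groups (15303 genes) gave sgSik1-3 against sgSik1. These comparisons share their KT or Sik-targeted libraries. A log2 change divided by the square root of F, without sign, gave its SE. The edgeR step was tested on simulated data. DESeq2 1.42.0, limma-voom 3.58.1 and other settings were alternatives. No libraries of a group were duplicates (chi-square per degree of freedom at least 15.1). Members and lists were chosen with earlier results of these data known. Named list genes were fixed regulators, of which some are not reported here, and, per list and comparison with KT, up to 5 called genes with the smallest p. Genes most like the members were the 8 with the smallest mean distance in standardised log2 CPM (prior count 2) among non-members of at least 2 CPM, without predicted, clone and sex-linked genes. Coordinates and promoters come from RefSeq (GRCm38.p6); per-length levels use the joined exon bases of protein-coding transcripts, and these, strands and exon numbers come from the GENCODE annotation of GRCm38.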

Additional observations from a re-analysis of the deposited data

Results flagged for a closer look

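Of 20 checks of a gene in a group of 4 or 5 libraries (10 genes in Sik-targeted and in KT libraries), 3 held a library far from the others of its group by Dixon's gap test at 95%. For normally distributed values chance gives such a flag in about 1 of 20 groups. CPM need not be distributed so, and the 3 flags are not weighed against that rate. Gkn2 measured 249.9 CPM in sgSik1-3 replicate 1, against 4.47 to 16.4 CPM in the other 4 Sik-targeted libraries. Tff3 measured 0.237 CPM in sgSik1-3 replicate 1, which is 1 count, under the floor of 3, and 0 in the other 4. With 4 values at 0 any count gives that flag, so it says nothing of Tff3. Tff2 measured 2.67 CPM in KT replicate 1, which is 17 counts, and at most 0.0787 CPM in the other KT libraries. The check was run only on groups of 4 or 5 libraries, so the Lkb1-deleted group of 3, with its replicate 1, was not checked.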

How the results depend on the processing

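Without a low-count filter, 25751 genes were tested. The members called were 8 in Lkb1-deleted against KT, 4 in Lkb1-deleted against Sik-targeted and 1 (Gkn2) in sgSik1-3 against sgSik1. Other list genes called were 17, 40 (Sik-targeted against KT) and 14. All genes called were 846 (3.29%) in Lkb1-deleted against KT and 3654 (14.2%) in Sik-targeted against KT. They were 698 (2.71%) in Lkb1-deleted against Sik-targeted and 44 (0.171%) in sgSik1-3 against sgSik1. With DESeq2, 7 members, 8 other list genes and 553 genes (4.07% of all tested) were called in Lkb1-deleted against KT, and 2526 genes in Sik-targeted against KT. DESeq2 called 6 list genes and 345 genes in Lkb1-deleted against Sik-targeted, and 6 genes in sgSik1-3 against sgSik1. With only the groups compared in the fit, 0 genes and 0 list genes were called in Lkb1-deleted against Sik-targeted. Without KT replicates 2 and 3, 3 genes and 0 list genes were called in Lkb1-deleted against KT, 98 genes, 0 members and 0 list genes in Sik-targeted against KT, and 9 genes and 0 list genes in Lkb1-deleted against Sik-targeted; that leaves KT with 2 libraries. Correlations of deviations from group means between libraries with the same replicate number ran between -0.31 and 0.22, with 5 of 15 over 0.1. Deviations within such small groups are tied to each other, so these values cannot tell whether the numbers pair the libraries. With a replicate block, genes called were 49 in Lkb1-deleted against KT, 1050 in Sik-targeted against KT and 10 in Lkb1-deleted against Sik-targeted, and list genes 0, 13 and 0; the count of members called did not change. With each library left out in turn, genes called ran between 13 and 242 (Lkb1-deleted against KT), 577 and 2655 (Sik-targeted against KT), 5 and 710 (Lkb1-deleted against Sik-targeted) and 0 and 4 (sgSik1-3 against sgSik1). Members called ran between 0 and 5, 4 and 8, 0 and 7 and 0 and 0. The highest of these, 5, 8 and 7, came with 0.508%, 17.4% and 4.65% of all tested genes called. List genes called ran between 0 and 5, 10 and 35, 0 and 18 and 0 and 0. Among list genes, changes that turned were those of Nkx2-1 (Lkb1-deleted against KT -0.028 with limma-voom and -0.33 to 0.20 over left-out libraries; Sik-targeted against KT -0.14 to 0.29) and of Hnf4a (Lkb1-deleted against KT -1.19 to 3.95, the low end without Lkb1-deleted replicate 1). Among members, Ctse (-0.65), Alpi (-0.43), Dmbt1 (-0.20) and Gkn2 (-1.15) turned in Lkb1-deleted against KT without Lkb1-deleted replicate 1. In Lkb1-deleted against Sik-targeted, Alpi turned to -4.01 with limma-voom, -1.64 with a replicate block and -7.52 without Lkb1-deleted replicate 1, and Gkn2 to 0.81 without sgSik1-3 replicate 1. In sgSik1-3 against sgSik1, over left-out libraries Tff1 ran between -0.64 and 1.12, Lgals4 between -0.43 and 0.39, Vil1 between -0.27 and 0.75 and Alpi between -0.034 and 1.01, and Tff1 and Lgals4 also turned with limma-voom and a replicate block, and Lgals4, at -0.02, under 4 further settings. The cause was not tested. Scaling by median ratios moved CPM by factors of 0.960 to 1.03. Dropping the 4 most abundant transcripts multiplied them by 1.99 to 2.10, since library totals shrink, and left members called as they were. Tff2 and Tff3 are limited by depth.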

Other observations

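The 10 genes together took 0.399% of counts in Lkb1-deleted replicate 1, and 0.00468% and 0.00658% in replicates 2 and 3. They took 0.0996% to 0.491% in Sik-targeted libraries and 0.00794% to 0.0164% in KT libraries.

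Pgc, the pepsinogen C of chief cells, had at most 0.367 CPM in Lkb1-deleted, 2.36 CPM in Sik-targeted and 0.866 CPM in KT libraries. Muc6, the mucin of gastric neck and gland cells, had 0.244 to 7.33 CPM in Lkb1-deleted, 1.42 to 4.03 CPM in Sik-targeted and 0.785 to 19.0 CPM in KT libraries. In Sik-targeted against KT, Muc6 was not called (log2 change -2.22, SE 0.82, edgeR adjusted p = 0.0876). Both genes were chosen after their values were seen.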
